A study of Homo sapiens with 24 samples.

Results

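The transcripts described here are those of 38 genes of the hypoxia response and of glycolysis in A549 cells, a human line derived from a lung adenocarcinoma. They were selected on a list of known targets of hypoxia-inducible factor (HIF) and of glycolytic enzymes, and on measured level, with at least 1 TPM in at least 3 of the 24 libraries. The list was chosen with earlier results of these data known. All 38 listed genes met that level, out of 60609 gene rows in the table, of which 16062 were tested. TPM is a transcript abundance scaled for transcript length and to the same total in every library. Cells received either a pool of siRNAs against BOP1, a ribosome biogenesis factor (siBOP1), or the FLuc siRNA as the control (siFLuc), with 48 h of transfection. They were mock treated or given interferon beta at 1000 U/mL (IFN), and the labels give 8 h or 12 h as the time. That gives 8 groups of 3 libraries: siFLuc mock, siBOP1 mock, siFLuc IFN and siBOP1 IFN at each time. All groups are the same cell line in the same serum-containing medium, and the labels name no low-oxygen culture. Nothing in the labels says that the 3 libraries of a group came from separate experiments, so p-values measure the spread between these libraries, which may be technical.

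HIF is a transcription factor made of an oxygen-regulated alpha subunit, such as HIF1A, and a constant partner. When oxygen is present, prolyl hydroxylases of the EGLN family mark the alpha subunit for breakdown, so the protein can change while the HIF1A transcript does not. When HIF is active it raises glucose transporters, most glycolytic enzymes, PDK1, which inhibits pyruvate dehydrogenase, and secreted factors such as VEGFA. Cancer cell lines such as A549 rely heavily on glycolysis in culture, and in dense cultures oxygen and glucose are used up locally.

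Promoter words of 3 kinds were compared between members, because members that move together are described below: the HIF response core, ACGTG or GCGTG, the interferon response spacing GAAANNGAA and the STAT spacing TTCNNNGAA, each searched on both strands. RefSeq promoter windows (250 bases before to 50 after a start, GRCh38.p14) were found for 32 of the 38 members, as 47 windows. SLC2A3, BNIP3L, VEGFA, ANKZF1, HILPDA and NDRG1 had no entry. A HIF core was in 41 of the 47 windows (87.2%) and in 48.4% of all 35116 windows. The members were listed as HIF targets, so this share is no independent evidence. EGLN3, P4HA2 and PGAM1 had no core in any window. The PGAM1 window printed below begins at base 97427568, after the gene start in GENCODE 29 (97426160). The bases before that gene start are therefore not in it. The interferon spacing was in 2 of the 47 windows (4.26%), those of ADM and LOX, and in 8.11% of all windows. The STAT spacing was in 1 of the 47 (2.13%), that of PDK1, and in 7.66% of all windows. A match is a string of letters, not a bound site, and its lack says only that the letters are not in the window. The windows of HK2, ADM and PGAM1, which rose with IFN, and of BNIP3, a HIF target, are printed 5′ to 3′, with matches to any of these words in capitals. The HK2 window (chr2:74833877-74834176, plus strand) holds 3 core matches, and a second HK2 window (chr2:74834920-74835219) holds 6. ADM (chr11:10304823-10305122, plus strand) holds 1 core and 1 interferon spacing, PGAM1 (chr10:97427568-97427867, plus strand) neither, and BNIP3 (chr10:131981874-131982173, minus strand) 6 cores, counting a palindrome on each strand.
HK2: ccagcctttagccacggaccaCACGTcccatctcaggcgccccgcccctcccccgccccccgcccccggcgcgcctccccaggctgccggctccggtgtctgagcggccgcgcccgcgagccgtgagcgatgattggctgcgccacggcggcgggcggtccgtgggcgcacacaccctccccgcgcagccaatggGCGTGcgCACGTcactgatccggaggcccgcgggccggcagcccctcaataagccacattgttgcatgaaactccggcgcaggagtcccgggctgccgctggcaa
ADM: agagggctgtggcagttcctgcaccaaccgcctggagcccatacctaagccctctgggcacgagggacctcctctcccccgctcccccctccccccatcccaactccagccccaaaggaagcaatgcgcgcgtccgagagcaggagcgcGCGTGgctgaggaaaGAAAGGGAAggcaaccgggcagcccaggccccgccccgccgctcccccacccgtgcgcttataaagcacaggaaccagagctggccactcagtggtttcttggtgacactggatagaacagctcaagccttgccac
PGAM1: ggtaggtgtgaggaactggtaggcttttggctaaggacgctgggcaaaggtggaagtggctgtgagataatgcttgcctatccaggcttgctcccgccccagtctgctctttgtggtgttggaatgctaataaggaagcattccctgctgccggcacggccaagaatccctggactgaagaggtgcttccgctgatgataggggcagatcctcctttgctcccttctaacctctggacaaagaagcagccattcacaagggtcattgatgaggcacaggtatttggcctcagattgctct
BNIP3: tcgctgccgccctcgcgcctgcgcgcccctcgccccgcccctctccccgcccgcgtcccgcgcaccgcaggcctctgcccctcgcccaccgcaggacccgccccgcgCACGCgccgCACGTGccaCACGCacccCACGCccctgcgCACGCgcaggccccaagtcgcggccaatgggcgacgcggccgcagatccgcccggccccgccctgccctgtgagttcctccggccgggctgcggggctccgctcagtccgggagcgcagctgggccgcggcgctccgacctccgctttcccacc

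The library set has 3 features that bear on these genes. BOP1 was at 10.04 to 19.5 TPM in the 12 siBOP1 libraries and at 32.4 to 78.8 TPM in the 12 siFLuc libraries. Each group holds libraries whose columns are numbered 1, 2 and 4, and what a number stands for is not given in the labels. Between 13844 and 14509 genes reached 1 TPM per library, and mitochondrial genes held 6.86% to 15.9% of TPM. The keratins KRT7, KRT8 and KRT18 and the A549 enzymes ALDH1A1 and AKR1B10 were at or above 1161.7 TPM in every library. EPCAM was at 1.92 to 5.48 TPM. Of the alveolar type II markers SFTPA1 was at 0 in all 24 libraries, and SFTPC reached 1.61 and SFTPB 0.395 TPM at most. The leukocyte, endothelial and fibroblast markers PTPRC, CD3E, LYZ, PECAM1, CDH5, COL1A2 and DCN stayed at or below 0.823 TPM, whereas COL1A1 was at 5.37 to 19.3 TPM. In bulk RNA a change in every cell and a change in some of the cells cannot be told apart.

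Members differed widely in level. LDHA, the enzyme that makes lactate from pyruvate, had the highest mean at 2463 TPM (1849 to 3245), followed by ENO1 (2366), ALDOA (1868) and TPI1 (1366 TPM). Of the 10 glycolytic enzymes 9 stayed at or above 31.7 TPM in every library, the lowest of them being ALDOC at 31.7 to 53.8 TPM. HK2, the inducible hexokinase of the first step, was the exception at 0.513 to 9.80 TPM. LOX, which cross-links collagen, was the member closest to the level limit, with at least 1 TPM in 10 libraries (0.348 to 2.11 TPM). HK2 came next, with 17 libraries, all 12 IFN libraries and 5 mock libraries. The other 36 members reached 1 TPM in all 24, and no listed gene fell below the limit. Together the 38 members held 1.05% to 1.74% of a library's TPM. Several of the enzymes (LDHA, ENO1, PGAM1, PGK1, TPI1) have processed pseudogenes, and SLC2A3 has the close copy SLC2A14. How reads shared between such copies were assigned is not given in the sources used here, so those levels are uncertain to that extent.

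The members differed most by library number. In the libraries numbered 4 most hypoxia and glycolysis transcripts were lower than in the libraries numbered 1 and 2 of the same group, with either siRNA, with IFN or mock treatment, and at both times. At 8 h, 32 of the 38 members were called lower and 0 higher (limma, adjusted p under 0.05 over all genes), against 8.72% of all genes lower and 8.55% higher. At 12 h, 27 were called lower and 3 higher, against 9.09% of all genes lower and 31.3% higher. The members were chosen with earlier results of these data known, so these counts are no independent evidence of a shift. The members' median shift on the log2(TPM + 1) scale was -0.50 at 8 h and -0.39 at 12 h, and that of all genes was -0.01 and 0.12. Median-of-ratios rescaling brings the 12 h median of all genes to -0.01. Of the members lower at 8 h, 25 were also lower at 12 h, 78.1% of the 8 h set and 92.6% of the 12 h set, with no library shared between the 2 times. The library numbered 4 was the lowest among its group in all 4 groups for 29 members at 8 h and 23 at 12 h. It was the highest in all 4 groups for 0 members at 8 h and 3 at 12 h. Shares of all genes are not given for these counts or for the overlap between times. By comparison, the members' median difference between the libraries numbered 2 and 1 was -0.07 at 8 h and -0.01 at 12 h. The p-values of this shift, here and below, measure the spread between libraries after group and number are fitted. If libraries of the same number were made together, these p-values do not measure the spread between such sets. The libraries numbered 4 also had a smaller share of mitochondrial RNA at 12 h. It was 6.86% of TPM in siFLuc mock and 11.5% to 12.2% in the other groups, against 12.8% to 15.9% in the other 8 libraries. At 8 h it was 10.9% to 14.2% against 13.0% to 15.3%, with overlap. The part of whatever lowered that share in the shift of the members was not tested.

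**Figure D1:**
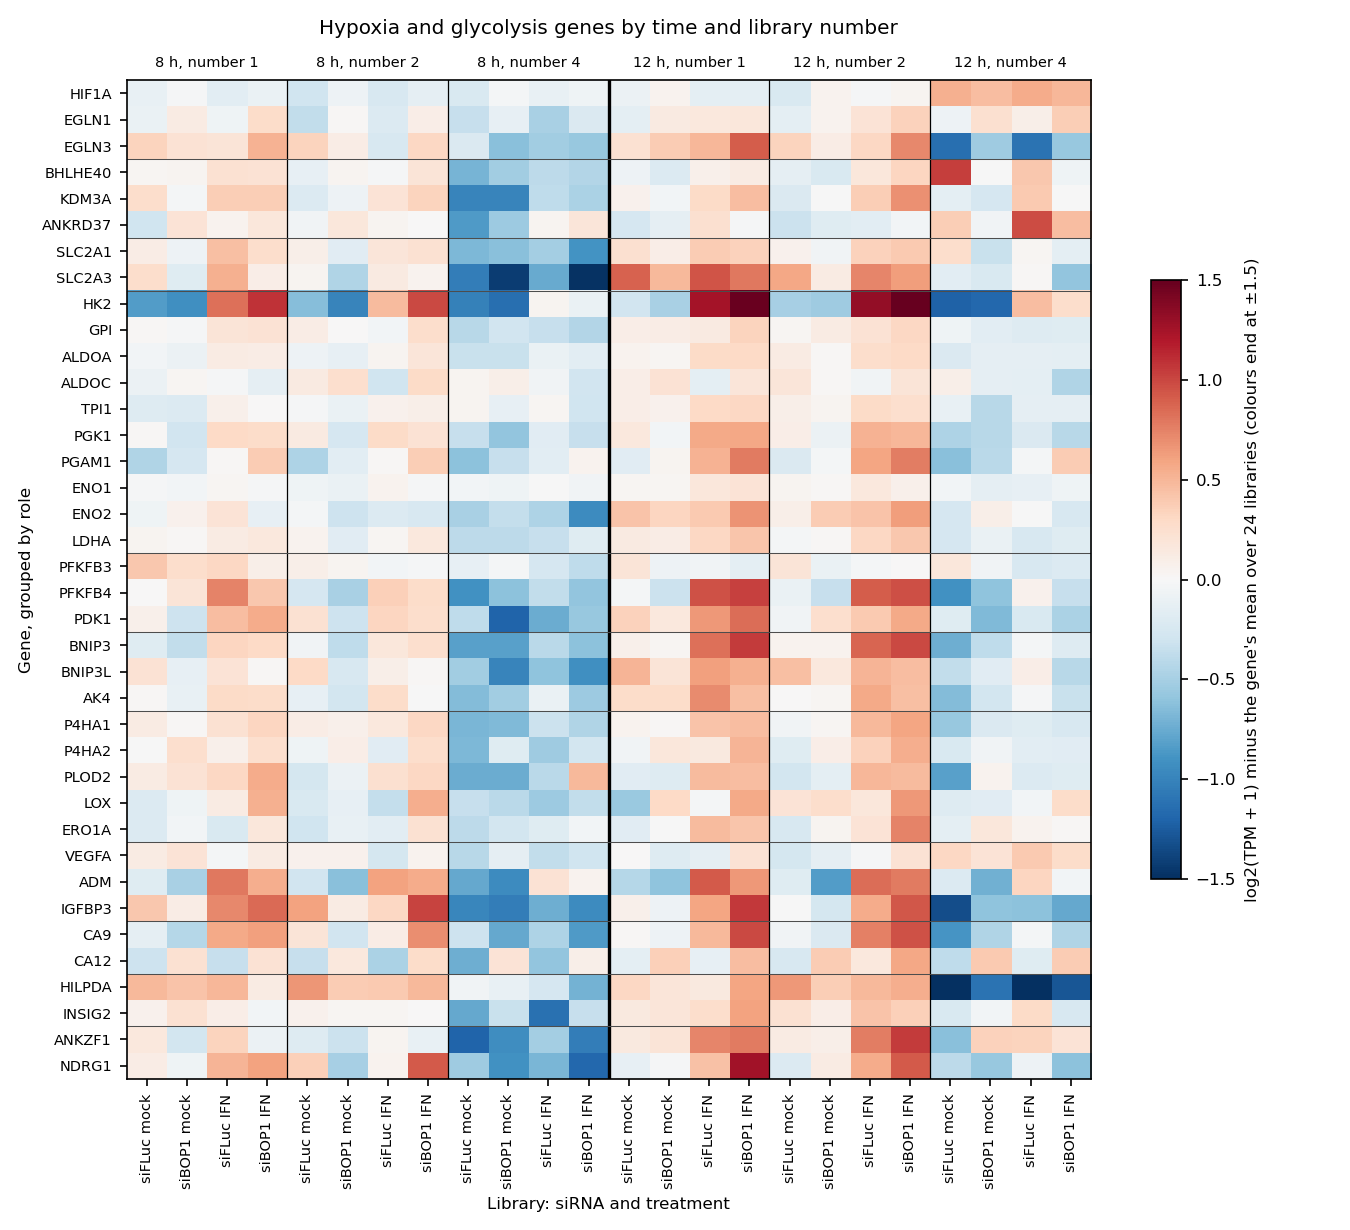
Level of each of the 38 members (rows, grouped by role) in each of the 24 libraries (columns, ordered by time and library number), as log2(TPM + 1) minus the gene's mean. Columns of libraries numbered 4 are mostly blue at both times, whereas HIF1A and VEGFA are red in all 4 of 12 h and ANKRD37 in 3 of them.

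The 6 members with the largest shift over both times were IGFBP3, HILPDA, SLC2A3, EGLN3, NDRG1 and PDK1. IGFBP3, a secreted binding protein of insulin-like growth factors, was at 181, 173, 214 and 185 TPM in the 8 h libraries numbered 4 (siFLuc mock, siBOP1 mock, siFLuc IFN, siBOP1 IFN). In the 8 libraries numbered 1 and 2 it ran from 384 through a median of 507 to 719 TPM. At 12 h the same 4 groups gave 141, 234, 232 and 209.6 TPM, against 297, 451 and 747 TPM for lowest, median and highest of the others. The sets did not overlap at either time, with shifts of -1.44 at 8 h and -1.19 at 12 h (SE 0.15, adjusted p 1.72e-05 and 1.58e-05).

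HILPDA, a lipid droplet protein that restrains triglyceride breakdown, was at 37.3, 35.7, 32.4 and 23.3 TPM in the 8 h libraries numbered 4, in the same order of groups. The other 8 libraries had 42.2 to 61.9 TPM with a median of 53.6. The 12 h values were lower still, at 10.96, 17.4, 12.9 and 15.3 TPM against 42.7 to 61.1 TPM (median 52.3). Both times were free of overlap, with shifts of -0.71 and -1.82 (SE 0.11, adjusted p 0.000348 and 8.48e-09).

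SLC2A3, the high-affinity glucose transporter GLUT3, was at 22.8, 17.2, 28.0 and 16.6 TPM at 8 h in the libraries numbered 4, against 34.8 to 69.9 TPM (median 50.7). In the 12 h libraries it was at 43.0, 40.8, 48.7 and 31.6 TPM, against 52.2 to 93.5 TPM (median 77.6). Its libraries numbered 4 lay below all others at each time, with shifts of -1.24 and -0.88 (SE 0.09, adjusted p 1.66e-06 and 3.02e-06). SLC2A1, the broadly expressed transporter GLUT1, was shifted by -0.81 at 8 h and by -0.28 at 12 h (SE 0.09), where 2 libraries numbered 4, siFLuc mock at 164 TPM and siFLuc IFN at 139 TPM, stood inside the range of the others (132 to 179 TPM). That 12 h call (adjusted p 0.0236) was lost without the library numbered 4 of any group but siFLuc mock (adjusted p up to 0.143) and without the level filter (0.061).

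EGLN3, a HIF prolyl hydroxylase that is itself a HIF target, was at 10.9, 7.98, 8.65 and 8.37 TPM at 8 h in the libraries numbered 4, against 10.8 to 19.0 TPM (median 15.7). The 12 h libraries had 5.35, 8.58, 5.44 and 8.40 TPM, against 13.9 to 25.0 TPM (median 16.8). The 8 h ranges touched and the 12 h ranges did not, with shifts of -0.71 and -1.27 (SE 0.11, adjusted p 0.000395 and 3.25e-07).

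NDRG1, a stress and differentiation gene of the HIF response, was at 30.5, 23.3, 27.2 and 19.1 TPM at 8 h in the libraries numbered 4, against 31.3 to 85.4 TPM (median 52.8). Its 12 h values of 33.6, 29.7, 42.0 and 28.8 TPM overlapped with the others (38.3 to 108 TPM, median 54.7). The shifts were -1.08 and -0.78 (SE 0.21, adjusted p 0.00233 and 0.00706), and without the siBOP1 IFN 12 h library numbered 4 the 12 h call was lost (adjusted p 0.0681).

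PDK1, the kinase that inhibits pyruvate dehydrogenase, was at 7.02, 3.53, 5.24 and 6.04 TPM at 8 h in the libraries numbered 4, against 7.42 to 14.4 TPM (median 11.4). Its 12 h values were 8.24, 5.62, 7.92 and 6.52 TPM, against 9.09 to 17.7 TPM (median 12.5). All libraries numbered 4 lay below all others at each time, with shifts of -0.89 and -0.78 (SE 0.12, adjusted p 0.00014 and 8.51e-05).

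**Figure D2:**
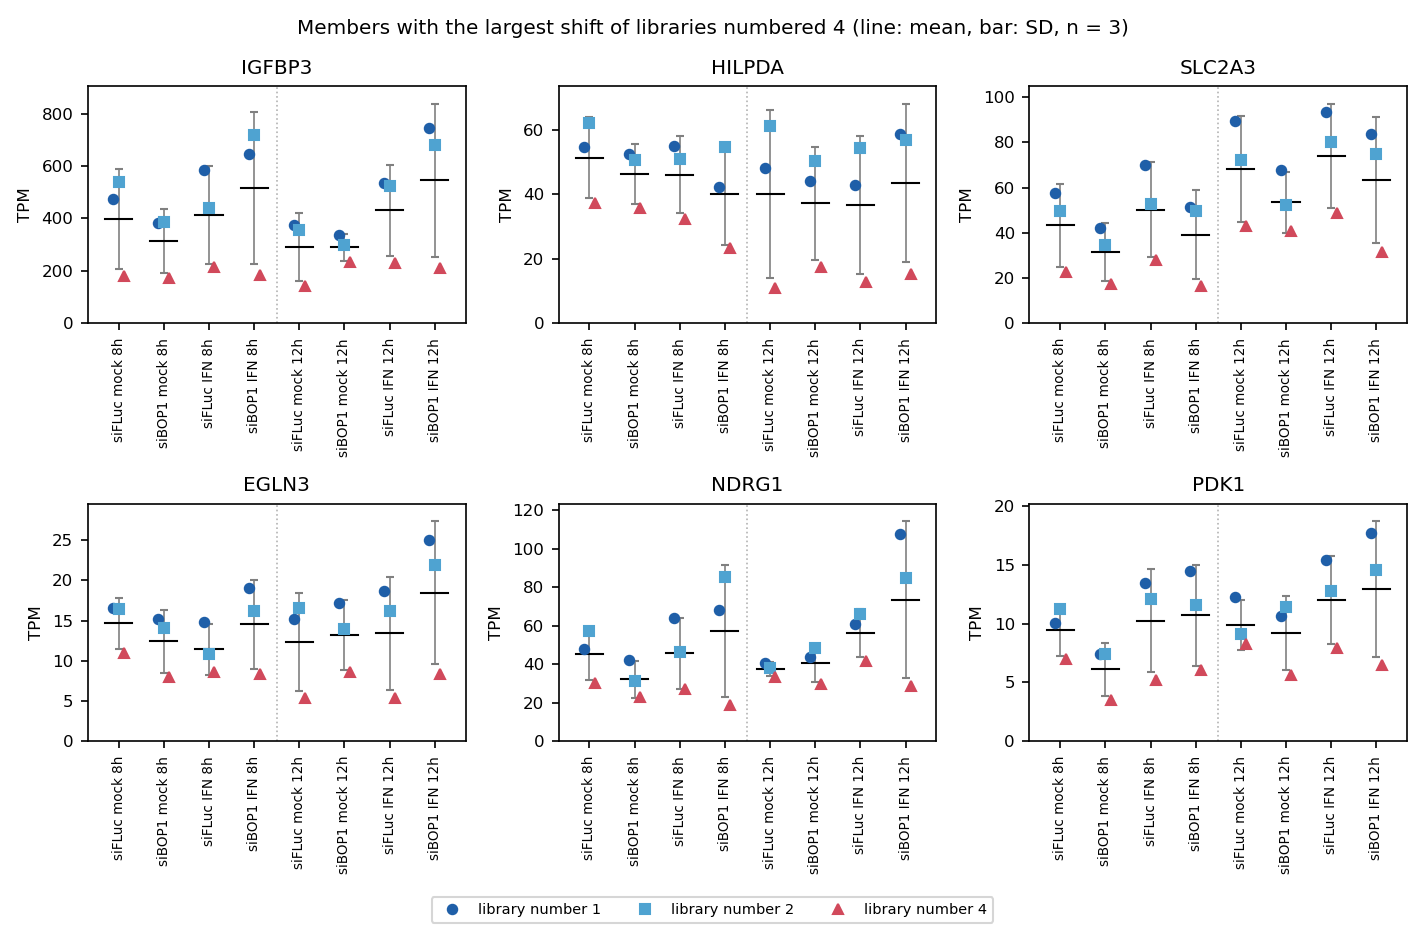
TPM of the 6 members with the largest shift in each of the 8 groups, 1 marker per library by number, with mean (line) and SD (bar) of the 3 libraries. The triangles (number 4) lie lowest in every group of each panel, as in HILPDA at 12 h, where they sit at 10.96 to 17.4 TPM and the others at 42.7 to 61.1 TPM.

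Across the roles the shift was broad. Of the 10 glycolytic enzymes 7 were lower at 8 h and 9 at 12 h, with changes between -0.54 and -0.02 at 8 h and between -0.90 and -0.18 at 12 h. LDHA was at 1849, 1849, 1919.9 and 2142 TPM in the 8 h libraries numbered 4, against 2160.1 to 2716 TPM (median 2515). At 12 h it was at 2042, 2267, 2053 and 2138 TPM, against 2385 to 3245 TPM (median 2847), so the sets were apart at both times (shifts -0.38 and -0.41, SE 0.06, adjusted p 0.000373 and 4.3e-05). ENO1, the enolase of most tissues, was shifted by -0.18 at 12 h (SE 0.04, adjusted p 0.000712; 0.063 under quantile normalization) and by -0.02 at 8 h (adjusted p 0.786). All 3 mitochondrial members were lower at both times. They are BNIP3 and BNIP3L, receptors for the removal of mitochondria, and AK4, an adenylate kinase of the mitochondrial matrix. BNIP3 was at 52.4, 52.2, 69.8 and 60.3 TPM at 8 h in the libraries numbered 4, against 71.0 to 116 TPM (median 97.1), and at 55.4, 71.2, 91.1 and 81.2 TPM at 12 h, against 94.5 to 194 TPM (median 131). Of the 5 collagen and secretory folding members, 4 were lower at 8 h and 3 at 12 h. P4HA1, a subunit of collagen prolyl hydroxylase, was shifted by -0.70 and -0.55 (SE 0.07), and ERO1A, which forms disulfide bonds in the endoplasmic reticulum, by -0.14 and -0.16 with no call (adjusted p 0.341 and 0.186). The 2 carbonic anhydrases of the cell surface, which control pH, differed. CA9 was shifted by -0.77 and -0.81 (SE 0.18), and CA12 by -0.18 and -0.13 (SE 0.06). The 8 h call of CA9 was lost without the siBOP1 IFN library numbered 4 (adjusted p 0.0563). The 8 h calls of CA12 (adjusted p 0.0452) and LOX (0.0436) were lost in 13 and 14 of the 24 leave-one-library-out fits, with an adjusted p up to 0.289 and 0.248. Of the 10 libraries in which LOX reached 1 TPM, 1 was numbered 4. LOX thus met the level limit mainly through the numbers in which it was higher, which favours a call in this direction.

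HIF1A (chr14:61695513-61748259 in GENCODE 29 on GRCh38, as for the gene positions given further on) was not lower at either time. At 8 h the libraries numbered 4 had 167, 191, 182 and 187 TPM, within the 159.8 to 193 TPM of the others (shift 0.03, SE 0.05, adjusted p 0.715). At 12 h they had 284, 270.3, 289 and 276 TPM, above all the others (167 to 204 TPM, median 189), a shift of 0.57 (SE 0.05, adjusted p 4.46e-07). VEGFA, the main angiogenic growth factor, had 51.6, 47.6, 54.6 and 50.01 TPM in the 12 h libraries numbered 4, against 34.3 to 48.3 TPM (median 39.2). At 8 h they had 30.6, 37.5, 31.6 and 33.3 TPM, against 34.2 to 47.8 TPM (median 43.2). Its shift was thus -0.35 at 8 h and 0.33 at 12 h (SE 0.07, adjusted p 0.00286 and 0.00136). The 12 h call was lost under quantile normalization (adjusted p 0.0638). ANKRD37, an ankyrin repeat protein, rose in the same way at 12 h, by 0.55 (SE 0.14, adjusted p 0.00595), to 6.00, 4.22, 9.75 and 6.51 TPM against 3.34 to 5.44 TPM. This call was lost without the siFLuc IFN 12 h library numbered 4 (adjusted p 0.0534).

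The difference of the shift between times was tested directly. It passed for 13 members, against 19.7% of all genes higher and 4.22% lower. Of these, 8 (21.1% of members) had a less negative or more positive shift at 12 h and 5 (13.2%) a more negative one. The share of the 8 is near that of all genes. Those up at 12 h relative to 8 h were BHLHE40, a clock-linked repressor (0.92, SE 0.19), ANKRD37 (0.88, SE 0.20), VEGFA (0.68, SE 0.10), KDM3A, a histone H3 demethylase (0.66, SE 0.13), HIF1A (0.54, SE 0.07), SLC2A1 (0.54, SE 0.13), EGLN1, the main oxygen-sensing hydroxylase (0.33, SE 0.08), and PFKFB3, which makes the activator of phosphofructokinase (0.25, SE 0.07). Those further down were HILPDA (-1.10, SE 0.15), EGLN3 (-0.56, SE 0.15), TPI1 (-0.33, SE 0.08), PGAM1 (-0.26, SE 0.06) and ENO1 (-0.17, SE 0.05). The adjusted p ran from 6.89e-05 (HIF1A) to 0.0247 (ENO1). EGLN1 lost the call under median-of-ratios rescaling and quantile normalization (adjusted p up to 0.14) and PFKFB3 under the former (0.346), where the median of all genes in this difference went from 0.12 to -0.02, TPI1 lost it under quantile normalization (0.0554), and ENO1 in 3 of 6 alternatives (up to 0.277) and without the library numbered 4 of siBOP1 mock 8 h, siFLuc mock 8 h or siFLuc IFN 12 h (up to 0.0869).

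**Figure D3:**
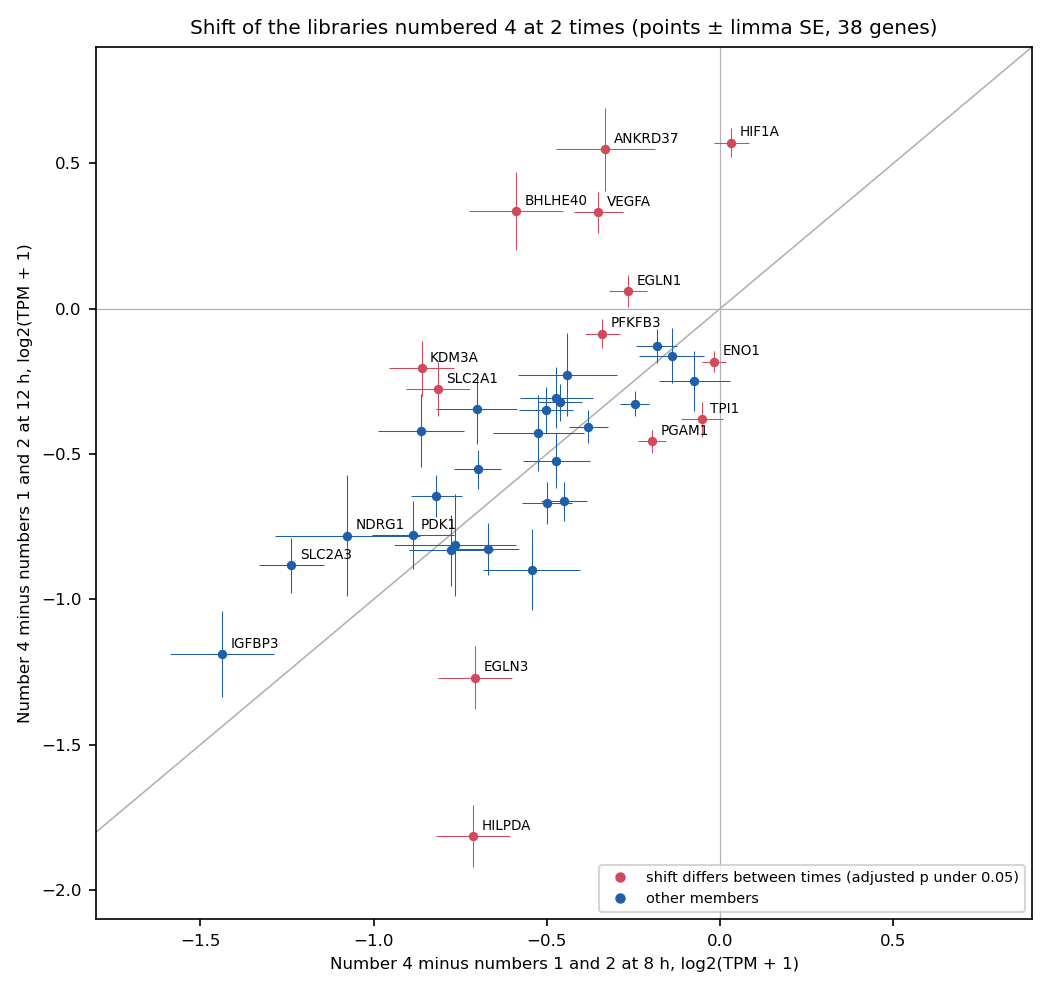
Shift of libraries numbered 4 relative to numbers 1 and 2, at 8 h (x axis) and at 12 h (y axis), in log2(TPM + 1), for the 38 members with limma standard errors. Members under the diagonal line moved further down at 12 h, with HILPDA at -0.71 and -1.82, and the red points are the 13 whose shift differed between times.

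The next comparison asked which members responded to IFN. How many were called depended on whether library number was in the fit. In at least 1 of the 4 comparisons (siFLuc or siBOP1, 8 h or 12 h) the unpaired fit called 4 of the 38 members (10.5%), all higher, a fit paired by library number 21, and the libraries numbered 1 and 2 alone 28. The 4 stand against 24.0% of all genes in either direction. Taking the 4 separately, 2 members were higher in siFLuc cells at 8 h (5.77% of all genes higher, 5.07% lower) and 3 in siBOP1 cells at 8 h (5.99% and 9.11%). The 12 h comparisons had 4 (siFLuc; 7.06% and 6.43%) and 3 (siBOP1; 7.17% and 7.58%). These shares lie near those of all genes. No member was called lower in any of the 4. The median change of the members was 0.10, 0.20, 0.25 and 0.28 in that order, and that of all genes -0.09, -0.14, -0.06 and -0.08, of which median-of-ratios rescaling brings the siBOP1 8 h value to -0.01. The siFLuc 8 h median of the members ran from -0.04 (without siFLuc mock 8 h library 4) to 0.29 over the alternatives, and was also below 0 (-0.03) without siFLuc IFN 8 h library 1. That of siBOP1 8 h ran from 0.03 without its IFN library 1 to 0.42 without its IFN library 4. The 4 members were HK2, ADM, PGAM1 and ERO1A.

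HK2 (chr2:74833981-74893359) had the largest change. In siFLuc cells at 8 h it was at 0.956, 1.24 and 0.733 TPM in mock libraries (numbers 1, 2 and 4) and at 5.18, 3.85 and 2.61 TPM with IFN. In siBOP1 cells at 8 h the values were 0.851, 0.763 and 0.603 TPM, and 6.41, 5.93 and 2.27 TPM with IFN. At 12 h siFLuc cells gave 1.87, 1.48 and 0.513 TPM, and 7.27, 7.73 and 3.81 TPM with IFN, and siBOP1 cells 1.51, 1.42 and 0.543 TPM, and 8.74, 9.80 and 3.21 TPM with IFN. All 12 IFN libraries lay above all 12 mock libraries, with 2.27 TPM as the lowest of the first and 1.87 TPM as the highest of the second. The ratios of mean TPM were 3.97, 6.59, 4.88 and 6.27 (siFLuc 8 h, siBOP1 8 h, siFLuc 12 h, siBOP1 12 h). On the log2(TPM + 1) scale, which understates change at such low levels, the changes were 1.28, 1.67, 1.67 and 1.86 (SE 0.36, limma adjusted p 0.0236, 0.00259, 0.00258 and 0.000948). The siFLuc 8 h call was lost without its mock library 1 or 4 or its IFN library 1 or 2 (adjusted p up to 0.113), and without the level filter (0.0632).

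ADM (chr11:10304680-10307397) encodes adrenomedullin, a secreted vasodilator peptide. In siFLuc cells at 8 h it was at 62.2, 57.4 and 41.1 TPM in mock libraries and at 123, 107 and 82.3 TPM with IFN. In siBOP1 cells at 8 h it was at 49.9, 45.3 and 36.1 TPM, and at 103, 104 and 73.0 TPM with IFN. At 12 h the values were 52.2, 62.1 and 61.0 TPM, and 134, 127 and 88.5 TPM with IFN, in siFLuc cells, and 46.1, 39.0 and 42.2 TPM, and 111, 122 and 68.1 TPM with IFN, in siBOP1 cells. Again no IFN library overlapped with any mock library (68.1 TPM and above, against 62.2 TPM and below). ADM rose by 0.95, 1.07, 0.96 and 1.18 on the log2 scale (SE 0.21, adjusted p 0.00488, 0.00138, 0.00357 and 0.000489), ratios of mean TPM of 1.94, 2.13, 1.99 and 2.37. All 4 calls held in each alternative run and without any single library.

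PGAM1 (chr10:97426160-97433441) is the phosphoglycerate mutase that turns 3-phosphoglycerate into 2-phosphoglycerate. At 8 h it was at 401, 396 and 357 TPM in siFLuc mock libraries and at 556, 556 and 489.9 TPM with IFN. In siBOP1 cells these were 459, 489 and 432 TPM, and 712, 706 and 569 TPM. At 12 h it was at 487, 472 and 354 TPM in siFLuc mock libraries and at 788, 829 and 535 TPM with IFN. In siBOP1 cells these were 562, 538 and 414 TPM, and 937, 930.0 and 712 TPM. Within each siRNA and time the IFN libraries lay above the mock libraries. The changes were 0.47, 0.52, 0.70 and 0.77 (SE 0.16, adjusted p 0.0622, 0.0302, 0.00412 and 0.00173), so the first did not pass. In a paired fit, with library number as a block inside each time, all 4 passed (adjusted p 5.48e-06, 1.44e-06, 3.25e-08 and 8.85e-09). Without that block the siBOP1 8 h call was lost without the level filter or under quantile normalization (adjusted p up to 0.152) and without its mock library 1 or 4 or its IFN library 1 or 2 (up to 0.115), and the siFLuc 12 h call when only the groups compared were fitted (0.114).

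ERO1A passed in siFLuc cells at 12 h; the interaction tests, given further on, did not set it apart there. It was at 68.6, 65.2 and 69.5 TPM in mock libraries and at 108, 88.8 and 80.0 TPM with IFN, with no overlap, a change of 0.43 (SE 0.14, adjusted p 0.04). The call was lost in 4 of the 11 alternative fits and without any 1 of the 3 mock libraries or the IFN libraries 1 or 2 of that comparison (adjusted p up to 0.209). In siBOP1 cells at 12 h it was at 76.5, 79.2 and 86.5 TPM, and at 103, 130.0 and 77.8 TPM with IFN, so that the groups overlapped in the library numbered 4 (change 0.33, adjusted p 0.115). The 8 h changes were 0.11 in siFLuc cells (58.7 to 66.8 against 65.9 to 69.1 TPM) and 0.26 in siBOP1 cells (63.4 to 74.7 against 74.9 to 90.2 TPM).

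**Figure D4:**
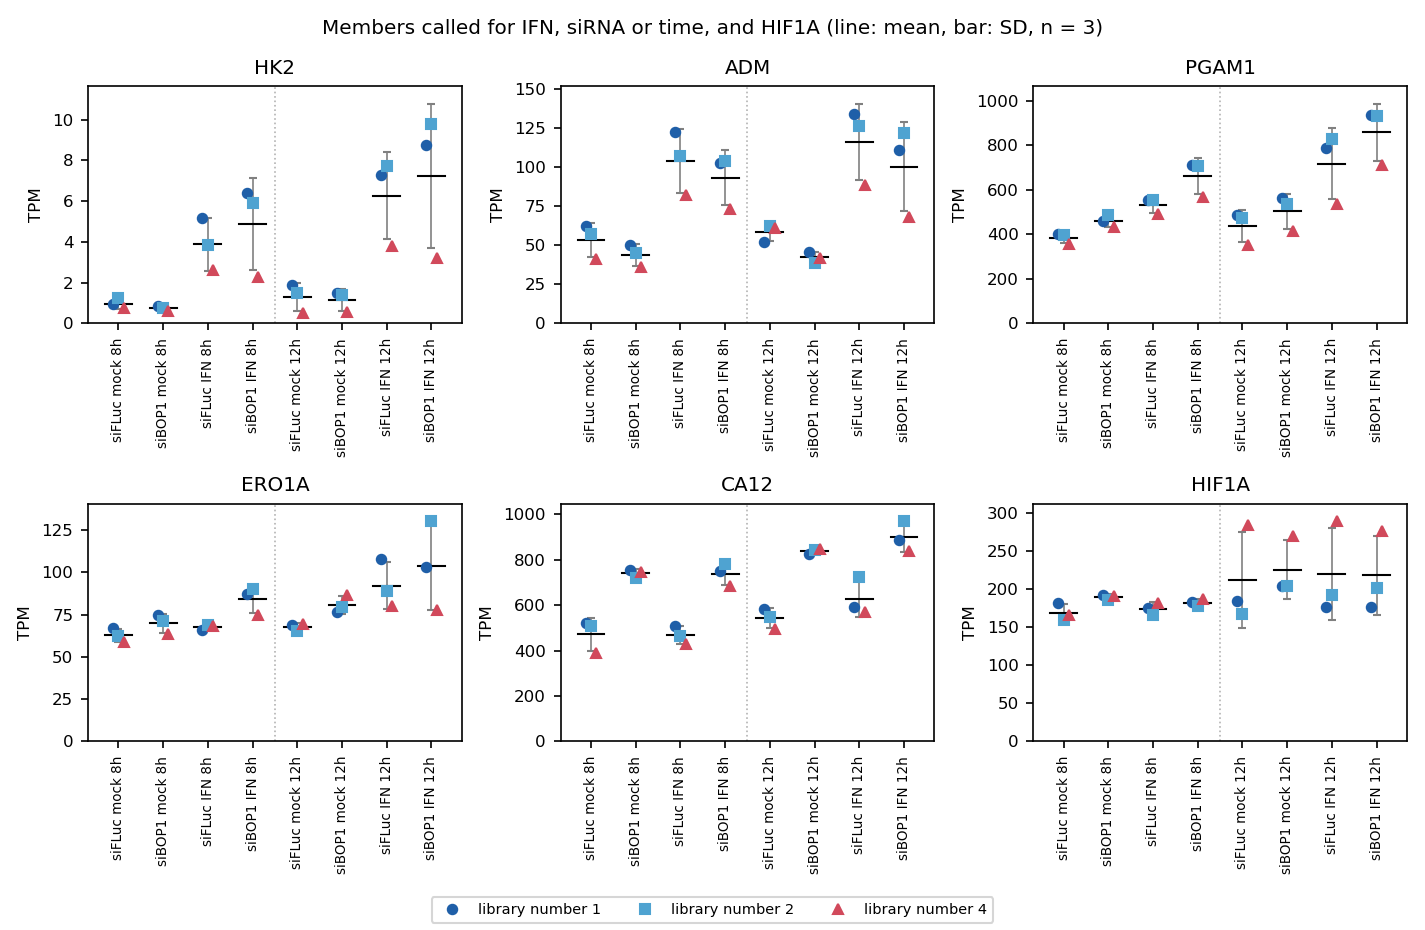
TPM of HK2, ADM, PGAM1, ERO1A, CA12 and HIF1A in each group, 1 marker per library by number, with mean (line) and SD (bar) of the 3 libraries. IFN libraries stand above mock libraries for HK2 (2.27 TPM and above, against 1.87 TPM and below) and ADM, and siBOP1 libraries above siFLuc libraries of the same treatment and time for CA12.

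More members passed in the paired fit. There, 21 members were called in at least 1 of the 4 IFN comparisons (55.3%), against 45.6% of all genes. For siFLuc 8 h these were 8 higher and 0 lower (8.24% of all genes higher and 12.7% lower), and for siBOP1 8 h 13 higher and 1 lower (8.56% and 20.4%). For siFLuc 12 h there were 15 higher and 1 lower (11.2% and 15.8%), and for siBOP1 12 h 14 higher and 0 lower (11.4% and 16.6%). In the blocked fit HK2, ADM, PGAM1, BNIP3 and KDM3A rose in all 4 comparisons. BNIP3 changed by 0.38, 0.50, 0.76 and 0.72 (blocked adjusted p 0.0321, 0.00453, 0.000153 and 0.000248, unblocked 0.563, 0.352, 0.151 and 0.17). KDM3A changed by 0.38, 0.44, 0.45 and 0.48 (blocked adjusted p 0.0429, 0.0144, 0.0139 and 0.00957). PFKFB4, an isoform of the enzyme that sets phosphofructokinase activity, rose in 3 comparisons (0.63, 0.99 and 0.97, with 0.33 in siBOP1 cells at 8 h), and its relative PFKFB3 was the member called lower, by -0.19 in siBOP1 cells at 8 h and -0.29 in siFLuc cells at 12 h (blocked adjusted p 0.0412 and 0.00355). PGK1, which makes the first ATP of glycolysis, rose in 3 comparisons, by 0.43, 0.36 and 0.41, with 0.20 in siFLuc cells at 8 h. The same 3 comparisons passed for CA9 (0.65, 0.71 and 0.75), IGFBP3 (0.58, 0.60 and 0.72) and P4HA1 (0.25, 0.44 and 0.33). ALDOA, the muscle-type aldolase, passed in all but siFLuc 12 h (0.17, 0.22 and 0.18). AK4 rose in siFLuc cells at both times (0.40 and 0.54), PLOD2, a collagen lysyl hydroxylase, at siBOP1 8 h and siFLuc 12 h (0.66 and 0.68), and ANKZF1, a ribosome quality control factor, with either siRNA at 12 h (0.74 and 0.47). The other members passed in 1 comparison each: PDK1 (0.70) and LDHA (0.23) at siBOP1 8 h, EGLN1 (0.27) and ERO1A (0.43) at siFLuc 12 h, and TPI1 (0.24) and VEGFA (0.28) at siBOP1 12 h. Their blocked adjusted p ran from 0.000437 (AK4, siFLuc 12 h) to 0.0487 (CA9, siBOP1 8 h). HIF1A itself changed by 0.05, -0.06, 0.06 and -0.06 with no call in either fit (unblocked SE 0.18).

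IFN was above mock in 12 of 12 pairs for 7 members (18.4%), against 8.64% of all genes: HK2, ADM, PGAM1, BNIP3, KDM3A, PGK1 and PFKFB4. PFKFB3 was lower with IFN in 11 of 12 pairs. In the libraries numbered 1 and 2 alone 28 of the 38 members were called in at least 1 IFN comparison, all higher, against 36.6% of all genes called in either direction. By comparison 6 (siFLuc 8 h), 16 (siBOP1 8 h), 19 (siFLuc 12 h) and 25 (siBOP1 12 h) were higher. These are 15.8%, 42.1%, 50% and 65.8% of members, against 7.33%, 8.13%, 9.85% and 10.2% of all genes higher. HIF1A, SLC2A3, HILPDA, ANKRD37, PFKFB3, ALDOC, ENO1, ENO2, LOX and CA12 were the 10 not called there. The median change by number was 0.18, 0.09 and 0.14 for numbers 1, 2 and 4 in siFLuc cells at 8 h, and 0.26, 0.35 and 0.21 at 12 h. In siBOP1 cells it was 0.21, 0.27 and 0.02 at 8 h, and 0.37, 0.43 and -0.02 at 12 h, so that at 12 h 37 of 38 members were above 0 in number 2 and 17 in number 4.

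The difference of the IFN change between number 4 and the other numbers was tested over both siRNAs, in a comparison added after the data were seen. The members' median was -0.28 at 12 h and -0.11 at 8 h, against 0.02 and -0.01 for all genes. At 12 h 1 member passed, ADM (-0.70, SE 0.12, adjusted p 0.0483), against 0.112% of all genes, and at 8 h 0 passed, against 0.00623%. At an unadjusted p under 0.05 there were 12 members at 12 h (31.6%, against 11% of all genes) and 7 at 8 h (18.4%, against 5.44%). The ADM call was lost in 5 of the 7 alternatives and in 22 of the 24 leave-one-library-out fits (adjusted p up to 0.316). NDRG1 had the lowest value at 12 h (-0.72, SE 0.35) and did not pass. In the siBOP1 IFN 12 h libraries NDRG1 was at 108, 84.8 and 28.8 TPM (numbers 1, 2 and 4), against 43.9, 48.6 and 29.7 TPM in the mock libraries. CA9 was at 19.0, 18.6 and 6.35 TPM there, against 8.53, 7.68 and 6.34 TPM, so neither gene was raised in the library numbered 4.

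**Figure D5:**
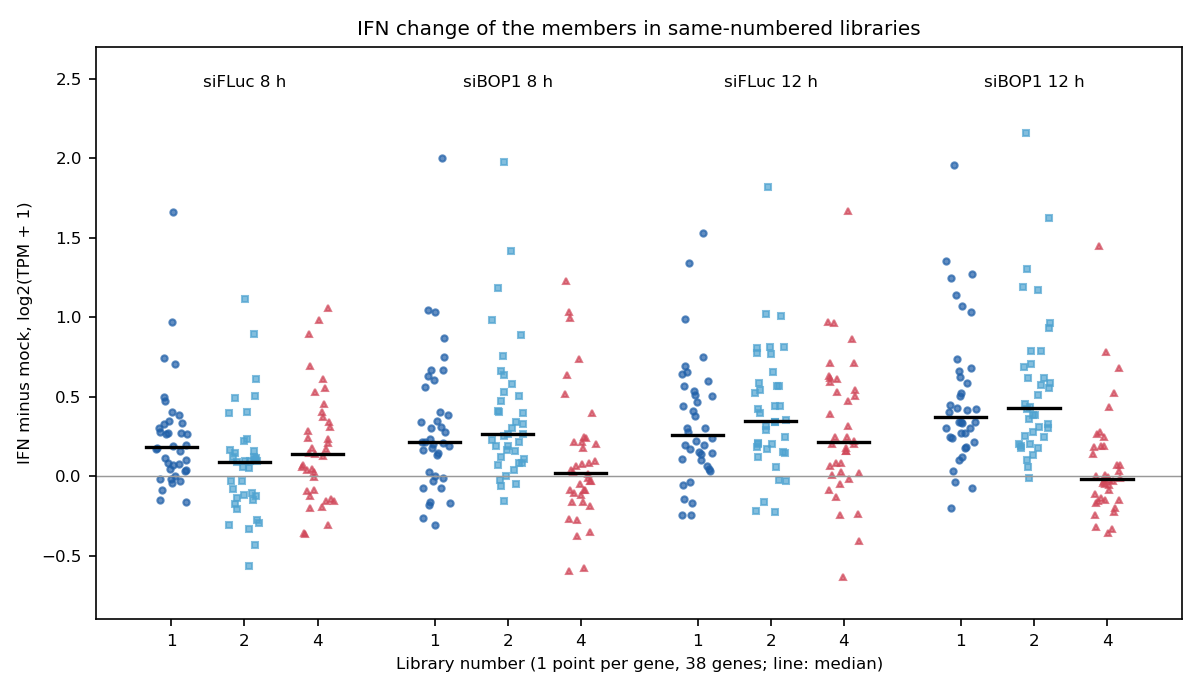
IFN minus mock change in log2(TPM + 1) (y axis) between libraries of the same number (x axis) for the 38 members, 1 point per gene, in each siRNA and time, with the median as a line. In siBOP1 cells the points of number 4 centre near 0 (0.02 at 8 h, -0.02 at 12 h), below those of numbers 1 and 2.

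Comparing siBOP1 with siFLuc asked which members differed between the siRNAs. CA12 was the 1 member called in the 4 comparisons (2.63% of members, against 3.46% of all genes in at least 1), and it was higher in each. That share is not above that of all genes. Whether the difference of CA12 comes from BOP1 depletion or from another effect of the siRNAs was not tested. The background was 2.16% of all genes in mock cells at 8 h, 2.0% with IFN at 8 h, 1.60% in mock cells at 12 h and 0.660% with IFN at 12 h. CA12 (chr15:63321378-63382161) was at 519, 506 and 387 TPM in siFLuc and 755, 721 and 745 TPM in siBOP1 mock libraries at 8 h. With IFN at 8 h it was at 507, 466 and 428 TPM, and at 748, 783 and 685 TPM. At 12 h mock libraries had 582, 548 and 495 TPM, and 826, 842 and 847 TPM, and IFN libraries 594, 722 and 569 TPM, and 886, 969 and 839 TPM. The siRNA groups did not overlap in any of the 4. CA12 was higher by 0.66, 0.66, 0.63 and 0.52 (SE 0.11, adjusted p 0.00151, 0.00154, 0.00315 and 0.0184), and higher in 12 of 12 same-numbered pairs. PGAM1 and EGLN1 were also higher in 12 of 12 pairs, and ADM and SLC2A3 were lower in 12 of 12, with no call in this fit. The share of all genes with 1 direction in 12 of 12 siRNA pairs is not given here. The changes of ADM were -0.28, -0.15, -0.45 and -0.23 (SE 0.21, adjusted p 0.381 to 0.878) and those of SLC2A3 -0.44, -0.41, -0.31 and -0.29 (SE 0.47, adjusted p 0.803 to 0.954). When only the groups compared were fitted, none of the 4 CA12 comparisons passed (adjusted p up to 0.398). The CA12 call with IFN at 12 h was also lost under both rescalings and without the variance trend. It was lost as well without siBOP1 IFN 12 h library 1 or 2 or siFLuc IFN 12 h library 1 or 4 (adjusted p up to 0.135).

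The paired fit called 8 members in at least 1 siRNA comparison, against 15.7% of all genes (8.49%, 8.81%, 7.66% and 3.77% in mock 8 h, IFN 8 h, mock 12 h and IFN 12 h). PGAM1 was higher with siBOP1 in all 4, by 0.26, 0.30, 0.21 and 0.28 (blocked adjusted p 0.00682, 0.00243, 0.0277 and 0.00917, unblocked 0.576, 0.423, 0.655 and 0.679), and EGLN1 in 3 (0.27, 0.31 and 0.26). In mock cells at 8 h SLC2A3 (-0.44), PGK1 (-0.31), PDK1 (-0.58) and BNIP3L (-0.45) were lower in that fit, and in mock cells at 12 h PFKFB3 (-0.26). In the libraries numbered 1 and 2 alone 4 members were called (CA12, PGAM1, PGK1 and BNIP3L), against 5.53% of all genes. The median change of the members was -0.03, 0.07, 0.04 and 0.05, each changing sign in 3 to 5 of 35 alternative fits.

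Between 8 h and 12 h, with siRNA and treatment the same, 1 member was called, CA12 in siFLuc IFN cells (0.42, SE 0.11, adjusted p 0.03). Its 12 h values were 594, 722 and 569 TPM and its 8 h values 507, 466 and 428 TPM. Of all genes 5.02% were called in at least 1 of the 4 time comparisons (0.131% in siFLuc mock, 3.53% in siFLuc IFN, 0.230% in siBOP1 mock and 2.96% in siBOP1 IFN cells). The CA12 call was lost in 5 of the 11 alternative fits and without the siFLuc IFN library 2 of either time or library 4 of 8 h (adjusted p up to 0.208 over the alternatives). A difference between harvests cannot be told apart from time. With the block within each time, 14 members were higher and 1 lower in siFLuc IFN cells (14.2% and 4.16% of all genes). In siBOP1 IFN cells 10 were higher and 0 lower (11.9% and 3.11%). Mock cells had 2 higher and 1 lower for siFLuc (6.49% and 1.88%), and 4 and 0 for siBOP1 (2.93% and 1.57%). In the libraries numbered 1 and 2 alone 14 members were called for time, all higher at 12 h, against 8.83% of all genes. They were 10 members in siFLuc IFN cells (26.3%, against 3.18% of all genes higher) and 9 in siBOP1 IFN cells (23.7%, against 3.51%). In mock cells they were 1 for siFLuc (2.63%, against 0.897%) and 2 for siBOP1 (5.26%, against 0.554%). All genes thus also had more calls with IFN, and no member passed the time by IFN test in those libraries. At an unadjusted p under 0.05 that test had 12 members in siFLuc cells (31.6%, against 7.03% of all genes) and 8 in siBOP1 cells (21.1%, against 7.5%). In the same libraries BNIP3 rose with time by 0.60 and 0.75 with IFN (SE 0.07, adjusted p 0.000846 and 0.000127), and by 0.42 in siBOP1 mock cells (adjusted p 0.0128). The median time change over all libraries was 0.12 and 0.14 in mock cells and 0.29 and 0.25 in IFN cells (siFLuc, siBOP1), against 0.06, 0.03, 0.09 and 0.09 for all genes. In siFLuc mock cells the median by library number (1, 2 and 4) was 0.04, 0.06 and 0.15. In siBOP1 mock cells it was 0.10, 0.13 and 0.29. With IFN it was 0.18, 0.29 and 0.40 for siFLuc, and 0.25, 0.26 and 0.25 for siBOP1. The medians over all libraries, from the fit without a block, moved when a library numbered 4 was left out. Without the 8 h library numbered 4 they were -0.05 (siFLuc mock), 0.06 (siBOP1 mock), 0.09 (siFLuc IFN) and 0.04 (siBOP1 IFN), and without the 12 h library numbered 4 those of IFN cells were 0.44 and 0.48.

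Whether BOP1 depletion altered the IFN change of these genes was tested as the siRNA by IFN interaction, and whether time did as the time by IFN interaction. No member passed in any of the 4 (limma), with 0 at an unadjusted p under 0.05 in each. Of all genes 0% were called for siRNA by IFN at 8 h or at 12 h, 0.00623% for time by IFN in siFLuc cells and 0% in siBOP1 cells. In the paired fit 0 members passed as well, with 2 at an unadjusted p under 0.05 for siRNA by IFN at each time (5.26%, against 5.02% of all genes at 8 h and 4.18% at 12 h). For time by IFN there were 5 in siFLuc cells (13.2%, against 8.52%) and 3 in siBOP1 cells (7.89%, against 9.37%). The siRNA by IFN values of the members lay between -0.29 and 0.66 (PDK1) at 8 h and between -0.36 (AK4) and 0.34 at 12 h. In the libraries numbered 1 and 2 alone 0 members passed, but more were at an unadjusted p under 0.05. These were 10 for siRNA by IFN at 8 h (26.3%, against 4.52% of all genes) and 5 at 12 h (13.2%, against 3.98%). For time by IFN they were 12 in siFLuc cells (31.6%, against 7.03%) and 8 in siBOP1 cells (21.1%, against 7.5%).

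Genes of the same pathway outside the 38 were read from 4 lists, also chosen with earlier results of these data known. The shares of all genes given above for IFN and for the libraries numbered 4 are the background for each list. In the list of HIF pathway components 21 of 22 genes were tested, and EPAS1, the HIF2 alpha subunit, was lower with IFN in 3 of the 4 comparisons. In siFLuc cells at 12 h its change was -0.60 (adjusted p 0.0576). In siBOP1 cells at 8 h EPAS1 fell by 1.16 on the log2 scale (SE 0.21, adjusted p 0.000392), from a mean of 90.6 to 40.3 TPM. ARNT2, a partner of HIF alpha subunits, fell at 8 h by 0.45 in siFLuc and 0.51 in siBOP1 cells, and CUL2, a scaffold of the ligase that removes HIF, rose by 0.31, 0.31 and 0.36 in the first 3 comparisons. In the whole list 1 gene was higher and 2 lower in siFLuc cells at 8 h, 1 and 2 for siBOP1 at 8 h, 1 and 1 for siFLuc at 12 h, and 0 and 2 for siBOP1 at 12 h. In the libraries numbered 4 it had 2 genes higher and 5 lower at 8 h, and 8 higher and 0 lower at 12 h, with SIAH2 (0.73), CREBBP (0.82) and ARNT (0.57) among them. Of all genes 31.3% were higher at 12 h, so that count is near the background. The paired fit called 1, 2, 2 and 3 of these genes higher and 3, 6, 3 and 3 lower with IFN.

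Of the other HIF targets (45 genes, 41 tested) 25 were lower and 2 higher in the libraries numbered 4 at 8 h, with a median of -0.38, and 16 lower and 10 higher at 12 h, with a median of -0.09. Of all genes 8.72% were lower and 8.55% higher at 8 h, and 9.09% and 31.3% at 12 h. The 12 h count of higher genes is thus not above the background. KDM4B, a histone demethylase, was shifted by -0.66 and CCNG2, a cell cycle gene, by -1.09 at 8 h, and DDIT4, an inhibitor of mTOR, by -0.61 at 8 h and by 0.79 at 12 h. With IFN 3, 4, 5 and 5 of these genes were higher and 0, 0, 2 and 0 lower, in the order siFLuc 8 h, siBOP1 8 h, siFLuc 12 h and siBOP1 12 h. Of all genes 5.77%, 5.99%, 7.06% and 7.17% were higher and 5.07%, 9.11%, 6.43% and 7.58% lower. The paired fit called 8, 9, 16 and 14 higher and 1, 4, 4 and 2 lower. There 8.24%, 8.56%, 11.2% and 11.4% of all genes were higher and 12.7%, 20.4%, 15.8% and 16.6% lower. EDN1, the vasoconstrictor endothelin 1, rose by 0.62, 0.49, 0.54 and 0.44 (SE 0.12), and ANGPTL4, an inhibitor of lipoprotein lipase, by 1.33, 1.18 and 1.49 in the last 3 comparisons (SE 0.33).

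Of the other glycolysis and pyruvate genes (30, of which 24 were tested) 6 were higher and 3 lower in the libraries numbered 4 at 8 h (8.55% and 8.72% of all genes), and 9 and 6 at 12 h (31.3% and 9.09% of all genes), so that the 12 h count of higher genes is near the background. SLC16A3, the lactate exporter MCT4, was lower at both times, by -0.73 and -0.88 (SE 0.10, adjusted p 0.000134 and 4.35e-06), and PDK4 was lower at 8 h (-0.38) and higher at 12 h (0.81). With IFN 1, 1, 3 and 3 genes were higher and 0, 2, 2 and 1 lower, and in the paired fit 3, 4, 6 and 5 higher and 4, 7, 7 and 6 lower. PDP1, the phosphatase that reactivates pyruvate dehydrogenase, rose in siFLuc cells by 0.63 at 8 h and 0.80 at 12 h and in siBOP1 cells by 0.81 at 12 h (SE 0.19). SLC16A1, the lactate carrier MCT1, rose by 0.31, 0.32 and 0.40 in the last 3 comparisons. None of the 7 pentose phosphate enzymes was called for IFN in the unpaired fit, whereas the paired fit called 1 higher in siBOP1 cells at 8 h and 1 lower with each siRNA at 12 h. In the libraries numbered 4 1 was higher at 8 h (TALDO1, 0.14) and 2 at 12 h, with RPIA at 0.43, and 0 were lower at either time.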

How the data were processed

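RNA from A549 cells was profiled by stranded mRNA sequencing in 8 groups of 3 libraries. The deposited table holds TPM, computed by the authors; the aligner, quantifier and build are not given in the sources used here. Every column was used. TPM keeps no depth, so depth is unknown and no counting interval is given. The column number matches a labelled replicate for 16 columns; 8 are numbered 4 where labels count to 3, and were placed by group only. Symbols named 60295 of 60609 rows.

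Genes with at least 1 TPM in 3 libraries (16062) were fitted as log2(TPM + 1), pseudocount 1, with limma 3.58.1 in R 4.3.3 (1 mean per group, trend), with Benjamini-Hochberg adjustment over genes at 0.05. Fits were tested on simulated data. Number 4 was compared in a fit with the number as a term at each time; the rest have no block unless named. Same-numbered libraries deviated together within a time (correlation of deviations from group means 0.115 to 0.508 over 8 comparisons; numbers 1 and 2 alone -0.01 to 0.156), so counts and values paired by the replicate block are given beside those they change (21 members called for IFN). Between times it was -0.113 to 0.196, not taken as paired.

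Members and lists were chosen with earlier results of these data known. Values in every library are given for HIF1A, members called for IFN, siRNA or time, the 6 largest shifts and the highest mean; from each list up to 3 genes with the smallest adjusted p per comparison are named. Some list genes that this rule selects are not reported here. Other members were named after their values were seen. Alternatives varied the pseudocount, filter, scaling, trend, groups fitted, block and libraries.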

Additional observations from a re-analysis of the deposited data

Results flagged for a closer look

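The shift of the libraries numbered 4 against those numbered 1 and 2 differed between 12 h and 8 h by its own limma test for 13 members. The difference, 12 h minus 8 h on the log2(TPM + 1) scale, was 0.92 for BHLHE40, 0.88 for ANKRD37, 0.68 for VEGFA, 0.66 for KDM3A, 0.54 for HIF1A, 0.54 for SLC2A1, 0.33 for EGLN1 and 0.25 for PFKFB3. It was -1.10 for HILPDA, -0.56 for EGLN3, -0.33 for TPI1, -0.26 for PGAM1 and -0.17 for ENO1. The median of all genes in this difference was 0.12. Of the members 21.1% were called higher in it and 13.2% lower, against 19.7% and 4.22% of all genes. The share called higher is near that of all genes. EGLN1, PFKFB3, TPI1 and ENO1 lost the call in at least 1 alternative fit. For ADM the IFN change at 12 h was smaller in the libraries numbered 4 than in the others by -0.70. Its adjusted p was 0.0483, and the call was lost in 5 of 7 alternative fits. No group has more than 3 libraries, so single libraries were not tested as outliers.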

How the results depend on the processing

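Of 93 member and comparison pairs called, 72 were called in every alternative other than leaving out a library, 74 in every fit that left out 1 library, and 0 changed direction. The counts for the shift of number 4 stayed within 1.5 times under all alternatives run (28 to 32 members at 8 h, 25 to 31 at 12 h and 12 to 16 for the difference between times when 1 library was left out).

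The counts of members called in at least 1 comparison for IFN, BOP1 siRNA and time (4, 1 and 1) depended on library number. With the replicate block within each time they were 21, 8 and 16, with the replicate block across both times 16, 4 and 10, in libraries numbered 1 and 2 alone 28, 4 and 14, and there with the block 30, 6 and 18. The share of all genes is given above for IFN and siRNA with the block within each time. It is also given above for the libraries numbered 1 and 2 without the block. For the other counts it is not given, so they are not read as an excess over all genes. Leaving out 1 library gave 3 to 8 for IFN (8 without the siBOP1 IFN 12 h, 6 without the siFLuc IFN 12 h or siBOP1 IFN 8 h library numbered 4), 1 for siRNA and 0 to 3 for time. With only the groups compared, siRNA and time gave 0. Time also gave 0 without the filter, under both rescalings and without the trend. The count for number 4 by IFN (1) was 0 with a pseudocount of 0.1, without the filter, under quantile normalization, without the trend and with only the groups compared, and 0 to 2 when 1 library was left out. Causes were not tested. Both interaction counts were 0 in every fit. TPM keeps no depth, so the precision of low genes such as HK2 and LOX is unknown.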
